A study of Mus musculus with 26 samples.

Results

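The regions described here are H3K4me3 peaks that were called in Ebf1-null progenitors, met no peak of Early-B cells, and lay away from protein-coding genes. They are the progenitor peaks with a pileup of at least 15 that overlapped no Early-B peak by even 1 bp, overlapped no protein-coding gene span and lay more than 1 kb from every end of such a gene. Pileup is the read coverage that the authors' peak caller gave each peak. The rule kept 775 of the 31414 progenitor peaks. They were 12.9% of the 6025 progenitor peaks outside coding genes that reached this pileup. Among the 2578 progenitor-only peaks outside coding genes of any pileup, the other 1803 fell below the pileup threshold. These 775 peaks were selected on the peak caller's pileup and the absence of an Early-B peak, so their pileup, fold enrichment, p and q are given as a description.

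The progenitors are mouse cells with both copies of Ebf1 inactivated, so that they lack EBF1, a factor without which B cells do not form. Early-B cells were derived from the same Ebf1-/- progenitors by expressing EBF1 from the MigR1-EBF1.ER vector and culturing them for 2 days on OP9 stromal cells with SCF, FLT3-L, IL-7 and 4-hydroxytamoxifen, which switches the fusion protein on. Both groups therefore share the null alleles and differ in the vector, and the labels used here do not state how the progenitors were cultured for this assay. EBF1 in the Early-B cells came from a vector and not from its own gene, and OP9 cells are a mouse stromal line, so any carried over into the chromatin would map to the same genome. The labels give 2 H3K4me3 samples and 2 input DNA samples per group, but 1 peak list per group was analysed, so no value below has a replicate error and no test between the groups was possible. The lists carry no read counts, and the depth behind a peak is unknown. In such bulk samples, fewer cells carrying the mark and less mark per cell cannot be told apart.

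H3K4me3, the trimethyl mark on lysine 4 of histone H3, is laid down around gene starts by the SET1 and MLL methyltransferase complexes. CpG-rich DNA attracts these complexes through their CXXC-domain subunits, and most strong peaks mark coding promoters. Away from coding genes the mark is found at the starts of long non-coding RNAs (lncRNAs), at genes of small and structural RNAs, at unannotated starts and, weakly, at active enhancers.

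The lncRNA start windows met by these peaks varied in their DNA, although few of the peaks met one. A start window here is the 250 bases before an annotated start and the 50 bases from it onward, from RefSeq (GRCm38.p6, the assembly of mm10). The following 5 windows, written 5′ to 3′ on the gene's strand with each CpG in capitals, were picked to span the range from CpG-rich to CpG-free. Gm32351 lies under the peak with the highest −log10 p of all 775 (chr13:94702839-94703138, minus strand), Cistr has the most CpGs (chr15:102746860-102747159, minus strand), and Gm31954 has the highest GC content (chr11:68400150-68400449, plus strand). F630206G17Rik has few CpGs (chr11:45807833-45808132, plus strand) and Gm40913 has none (chr13:37333475-37333774, plus strand). Of the Gm40913 window, 159 bases lie inside the peak.
Gm32351: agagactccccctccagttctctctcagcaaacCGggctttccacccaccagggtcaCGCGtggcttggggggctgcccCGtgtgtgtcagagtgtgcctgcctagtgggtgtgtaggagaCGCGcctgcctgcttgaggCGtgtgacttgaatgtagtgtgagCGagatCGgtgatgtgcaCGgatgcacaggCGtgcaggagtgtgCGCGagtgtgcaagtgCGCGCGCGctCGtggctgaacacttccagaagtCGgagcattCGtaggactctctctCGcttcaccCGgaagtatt
Cistr: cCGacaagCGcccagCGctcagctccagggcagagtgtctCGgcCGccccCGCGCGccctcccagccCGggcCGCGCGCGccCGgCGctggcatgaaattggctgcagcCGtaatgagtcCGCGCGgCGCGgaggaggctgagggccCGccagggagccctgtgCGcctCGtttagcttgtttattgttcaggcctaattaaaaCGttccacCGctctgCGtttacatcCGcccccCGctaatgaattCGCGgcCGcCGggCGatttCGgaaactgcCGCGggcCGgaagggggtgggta
Gm31954: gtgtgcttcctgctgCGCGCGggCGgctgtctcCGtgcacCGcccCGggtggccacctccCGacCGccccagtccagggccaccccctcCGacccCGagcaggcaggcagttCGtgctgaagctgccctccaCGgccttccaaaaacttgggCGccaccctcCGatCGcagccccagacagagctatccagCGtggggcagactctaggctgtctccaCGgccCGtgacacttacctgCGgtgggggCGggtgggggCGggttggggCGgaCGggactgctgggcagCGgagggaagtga
F630206G17Rik: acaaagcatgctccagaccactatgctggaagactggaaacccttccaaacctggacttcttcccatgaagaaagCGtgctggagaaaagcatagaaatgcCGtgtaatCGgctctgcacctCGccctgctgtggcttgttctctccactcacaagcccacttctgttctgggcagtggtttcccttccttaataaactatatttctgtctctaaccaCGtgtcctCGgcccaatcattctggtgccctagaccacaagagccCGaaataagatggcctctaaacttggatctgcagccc
Gm40913: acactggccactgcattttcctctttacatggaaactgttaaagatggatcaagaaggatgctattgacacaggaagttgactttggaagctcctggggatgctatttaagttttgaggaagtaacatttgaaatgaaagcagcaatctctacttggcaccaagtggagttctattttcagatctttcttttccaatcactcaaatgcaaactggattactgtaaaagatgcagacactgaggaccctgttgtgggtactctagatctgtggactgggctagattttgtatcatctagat
Gm32351 carried 22 CpGs in the 300 bases and a CpG ratio, observed over expected from the base composition, of 0.81. Cistr carried 38 and a ratio of 1.1, and Gm31954 carried 25 and a ratio of 0.66. F630206G17Rik carried 7, for a ratio of 0.38. CpG-rich and CpG-free starts thus stand side by side in the same group of peaks.

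Only 22 of the 775 peaks met a lncRNA start window (2.84%, exact binomial 95% interval 1.79 to 4.27%). Outside coding genes the share was 7.7% for shared progenitor peaks and 2.35% for Early-B-only peaks, at the same pileup threshold. For progenitor-only peaks below that threshold it was 1.61%. The rest of this paragraph is about the windows met. The 22 peaks met 26 windows of 22 lncRNA genes, and in 23 of the windows the start base itself lay inside the peak. Of the 22 peaks, 18 had a q of at most 0.05. The median window had 6 CpGs and a CpG ratio of 0.24, and 4 of 26 windows (15.4%) reached a ratio of 0.6, those of Gm32351, Cistr, Gm31954 and Gm30731. Among the 11588 lncRNA start windows of the table the median ratio was also 0.24 and 14.05% reached 0.6. Windows met by shared progenitor peaks outside coding genes reached 0.6 in 127 of 482 cases (26.3%), and those met by Early-B-only peaks outside coding genes in 12 of 171 (7.02%). The windows of coding genes reached it in 47.7%. The table of windows is not complete, so a lncRNA gene can lack one.

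The peak at Gm32351 covered 1040 bp on chromosome 13 (mm10, 94702312 to 94703351) with a −log10 p of 19.9, a fold enrichment over background of 5.24 and a pileup of 39.65. The nearest Early-B peak lay 18082 bp away, and the nearest coding gene, the tubulin-folding factor Tbca, 85569 bp away. At F630206G17Rik the peak ran from 45807532 to 45808660 on chromosome 11 with a −log10 p of 7.09. At Gm40913, which lies 11284 bp from Ly86, a gene of the innate immune receptor partner MD-1, the peak had a −log10 p of 5.54. The peak at Cistr had 4.86 and that at Gm31954 had 4.46. Apart from Gm32351, then, none of these starts carried a peak above a −log10 p of 10.

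Short sequence motifs were searched in the 26 start windows on both strands, as a description. The core of EBF sites, TCCC and GGGA with any 2 bases between them, was in none of them. A count of 0 of 26 allows a share of up to about 11.5%, by an approximate limit. That core was in 0.803% of all lncRNA windows and 0.959% of coding windows. The GATA motif AGATAA was also in none of the 26, against 13.98% of all lncRNA windows. The RUNX motif TGTGGT was in 6 (23.1%, against 20.05%), the ETS motif GAGGAA in 11 (42.3%, against 29.9%) and the TATA motif TATAAA in 3 (11.5%, against 15.5%). Windows met by shared progenitor peaks outside coding genes held the ETS letters in 38.4%, RUNX in 24.1%, TATA in 15.8% and GATA in 11.8%. For windows met by Early-B-only peaks outside coding genes these were 32.2%, 23.4%, 16.4% and 15.8%. Several of the 26 windows belong to the same gene and overlap, among them 4 of D030055H07Rik, which all hold the ETS letters.

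**Figure D1:**
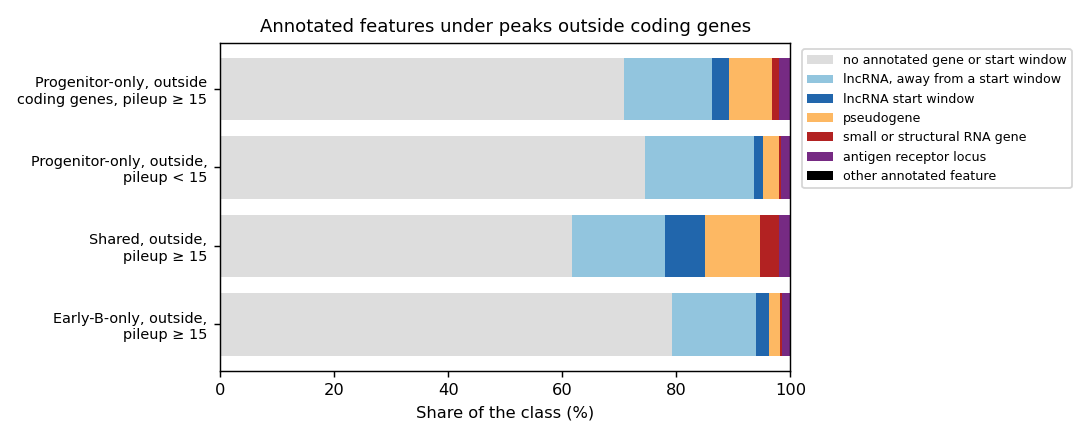
Bars give the share (%) of each peak class outside coding genes by the annotated feature it overlaps, for the 775 progenitor-only peaks, the 1803 below the pileup threshold, 5250 shared progenitor peaks and 6820 Early-B-only peaks. Neither an annotated gene nor a lncRNA start window lay under 70.8% of the 775 peaks, and the lncRNA start windows form a thin slice of 2.84%. Each peak is counted once, in a fixed order of features. The start-window slice of the shared peaks is therefore 6.95%, while 7.7% of them met such a window.

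Most of the 775 peaks had no annotated gene of any kind under them. There were 552 such peaks (71.2%), of which 3 met a lncRNA start window without reaching the gene and 549 (70.8%) met neither, while 223 (28.8%, exact binomial 95% interval 25.6 to 32.1%) overlapped the span of a non-coding gene or pseudogene. Beside the 22 at lncRNA start windows, 120 (15.5%) lay in a lncRNA gene away from a window. Pseudogenes held 59 (7.61%), antigen receptor loci 14 (1.81%), small or structural RNA genes 10 (1.29%) and 1 another feature. Each peak was counted once, under the first that applied: receptor locus, small or structural RNA gene, lncRNA start window, lncRNA gene, pseudogene, other feature. The 10 include the peak at Gm3164, which is annotated as a miscellaneous RNA. Among shared progenitor peaks outside coding genes with the same pileup threshold, 38.2% overlapped a non-coding gene or pseudogene. The share was 20.5% for Early-B-only peaks outside coding genes. Of the shared peaks, 9.64% lay at pseudogenes, 2.04% in antigen receptor loci and 3.33% at small or structural RNA genes. For the Early-B-only peaks these were 1.92%, 1.48% and 0.323%. Peaks at pseudogenes and small RNA genes were narrow, with median widths of 317 and 294.5 bp, against 984.5 bp at lncRNA start windows.

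Small and structural RNA genes gave several of the narrow peaks. A 217-bp peak on chromosome 11 (97797076 to 97797292) covered the tRNA gene n-TCgca56 with a −log10 p of 10.2 and a pileup of 29.27, although an Early-B peak of −log10 p 218 began 1471 bp away. On chromosome 3, a run of 4 peaks between 96359958 and 96422968 included 3 at snRNA genes. U1 snRNA, the splicing RNA that recognises the 5′ splice site, is encoded by Rnu1b1 and Rnu1b2. Their peaks had −log10 p values of 6.47 and 2.78, and that at the nearby snRNA gene Gm24136 had 4.71. The Early-B list held 3 peaks within the span of that run. Copies of these genes are near-identical, so which copy a read came from is uncertain.

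Among pseudogenes, the strongest peak lay at Gm10356 on chromosome 3 (47051573 to 47051803, −log10 p 10.3), 603584 bp from any coding gene. Ppp4r1l-ps carried a 1239-bp peak with a −log10 p of 9.385. Gm10355, 18872 bp from the T cell adhesion receptor gene Cd2, carried a peak of 8.34. In lncRNA genes away from a start window, the leading peaks lay in Gm42056 on chromosome 8 (14.2) and 1700030L20Rik on chromosome 3 (10.3), the latter 116191 bp from Bank1, a scaffold of B cell receptor signalling. Further peaks lay in Gm31239 (9.87) and Gm33413 (9.61), the latter 36666 bp from Nfatc2, a calcium-responsive factor of lymphocyte activation.

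The antigen receptor loci, where V, D and J segments are joined to make B and T cell receptors, are not protein-coding genes in the annotation and so could hold these peaks. The heavy chain locus Igh held 9, with −log10 p values from 2.46 to 4.73. Tcra held 2, Igk, Tcrb and Tcrg 1 each. The strongest covered a T cell receptor alpha V segment, Trav16n, on chromosome 14 (53350742 to 53351781), with a −log10 p of 10.9, a fold of 3.72 and an Early-B peak 7309 bp away. The peak in Igk had 6.76 and lay 748 bp from an Early-B peak.

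The 10 peaks with the highest −log10 p ranged from 11.9 to 19.9. After Gm32351 came a peak on chromosome 15 (102692544 to 102693354, 15.6), 13423 bp from Calcoco1, which encodes an autophagy receptor. On chromosome 12 a peak lay 1867 bp from Tex21 (76195868 to 76196819, 14.9) and another 31387 bp from Ppm1a, a phosphatase that acts on SMAD and stress kinases (72831206 to 72832409, 14.7). Next were a peak 11036 bp from Il20rb, a subunit of interleukin-20 family receptors (chromosome 9, 14.7), the peak in Gm42056 on chromosome 8 (14.2), and one 78820 bp from Wscd1 on chromosome 11 (12.8). On the X chromosome a peak 228710 bp from Bcor, which encodes a co-repressor of BCL6, had 12.03, and one 303312 bp from the histone variant gene H2al1j had 12.2. The last, at the transcript Gm3164 on chromosome 14, had 11.9. Their folds ran from 3.88 to 5.24.

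**Figure D2:**
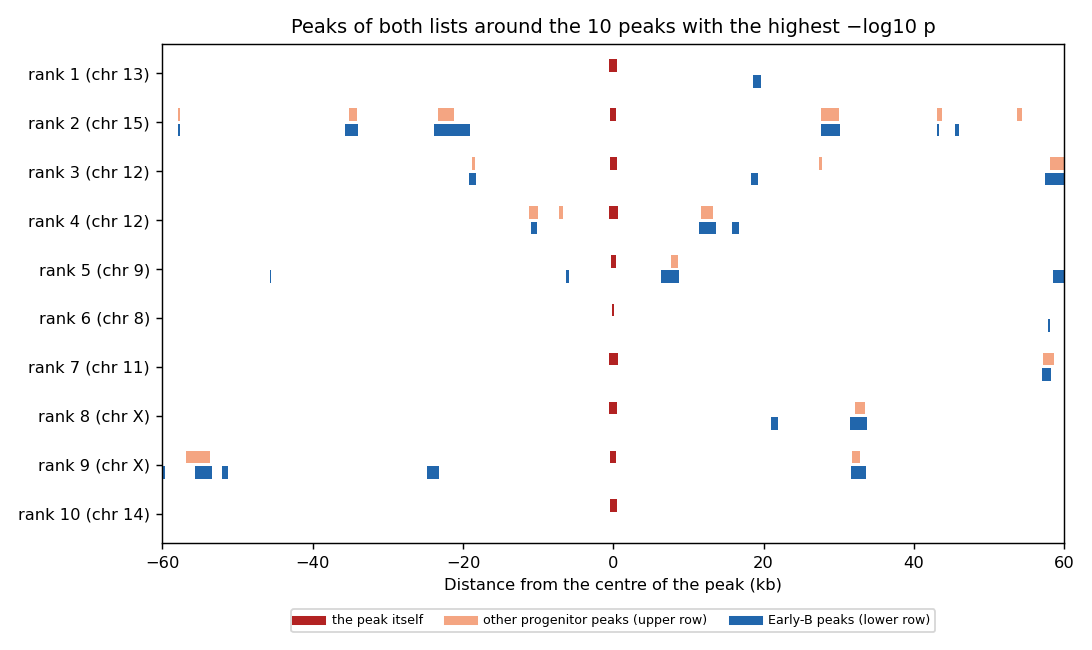
Each line is one of the 10 progenitor-only peaks with the highest −log10 p, centred at 0 kb, with other progenitor peaks in the upper row and Early-B peaks in the lower row within 60 kb on either side (x axis, kb), the narrowest peaks being drawn slightly wider so that they can be seen. Rank 2 has 6 peaks of each list around it, mostly at matching places, while rank 10 has none of either list.

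The neighbourhoods of these 10 peaks differed. Around the peak near Calcoco1, each list held 6 other peaks within 60 kb. Around Gm32351 the Early-B list held 1 and the progenitor list none. The nearest Early-B peak to these 10 lay between 5550 bp (near Il20rb) and 83048 bp (at Gm3164) away. That nearest Early-B peak was weak beside some of them, with a −log10 p of 1.74 near Il20rb and 1.54 near Gm42056, and strong beside others, with 105 near Calcoco1. Near Il20rb a further Early-B peak, of −log10 p 46.7, began 6326 bp from the centre of the progenitor-only peak.

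Beside the 12.9% of progenitor peaks outside coding genes that met no Early-B peak, the share was 17.1% inside coding genes, 3.23% at their ends and 9.53% over all places, at the same pileup threshold. These shares are what the rule itself counted. Peak strength was low. The median −log10 p of the 775 peaks was 3.61, from 1.09 to 19.9, their median fold 2.29 and their median pileup 17.39. Only 20 reached a −log10 p of 10 and 170 (21.9%) reached 5. By the authors' q, 543 of 775 (70.1%) were at most 0.05. Shared progenitor peaks outside coding genes with the same pileup threshold had a median −log10 p of 7.88, progenitor-only peaks inside coding genes 3.54 and those at coding gene ends 5.02.

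**Figure D3:**
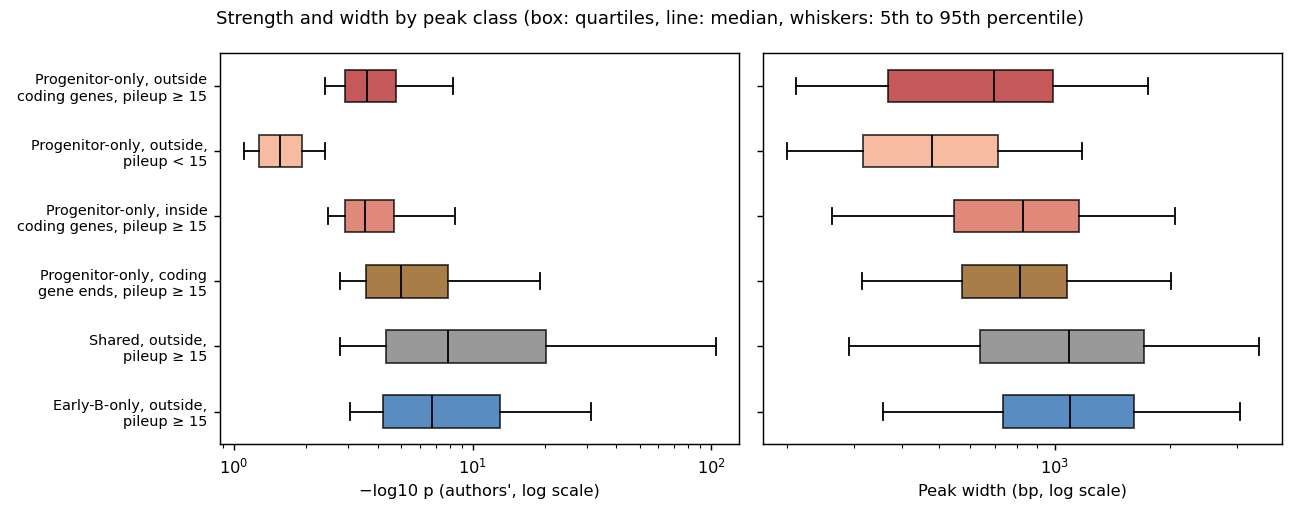
Box plots of −log10 p (left) and peak width in bp (right), both on log axes, for 6 classes of peak; boxes are quartiles, lines medians and whiskers the 5th to 95th percentiles over peaks, which are not replicates. The 775 peaks have a median −log10 p of 3.61 and a median width of 697 bp, below the shared peaks outside coding genes at 7.88 and 1088.5 bp. Progenitor-only peaks outside coding genes below the pileup threshold have medians of 1.56 and 479 bp.

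The peaks were mostly narrow. Their median width was 697 bp, and 265 (34.2%) were under 500 bp, while 28 (3.61%) exceeded 2000 bp. Progenitor-only peaks outside coding genes below the pileup threshold were narrower, with a median of 479 bp and 52.9% under 500 bp. Median widths were 829 bp for progenitor-only peaks inside coding genes, 1088.5 bp for shared progenitor peaks outside them and 1095 bp for Early-B-only peaks outside them. The widest, 5590 bp on chromosome 9 (123753770 to 123759359, −log10 p 3.76), lay 7852 bp from Ccr9, the chemokine receptor that guides cells to the thymus and gut, with an Early-B peak of −log10 p 18.9 at 2554 bp. The next were 4557 bp near Marco, a macrophage scavenger receptor gene (chromosome 1, 24209 bp away), 4130 bp near Lratd2 on chromosome 15, 3121 bp near Baiap2 on chromosome 11 and 3041 bp near Gcnt1, a gene of O-glycan branching, on chromosome 19. Their −log10 p values lay between 3.61 and 4.89, so the widest peaks were not the strongest.

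The pileup threshold of 15 cut through a dense range of values. Just inside it were peaks with a pileup of 15 in Tcrb (−log10 p 2.72), 15.01 near Gm10410 on chromosome 14 (2.73) and 15.01 near Tle3 on chromosome 9 (2.63). Just outside it were 3 peaks at 14.99, near Cracdl (2.91), Vmn1r220 (2.71) and Sult2b1 (2.76). Peaks on either side of the threshold were alike in these values.

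A few peaks passed the threshold on coverage that the background nearly matched. The 5 highest pileups, 96.81 near Abcb11, 85.4 near Frmd4a, 77.49 near Stmn2, 74.95 near Scaf8 and 65.74 near Gm40035, came with folds of 1.20 to 1.42 and −log10 p values of 1.22 to 2.79. Pileup divided by fold, a rough measure of the background at a peak, was 7.45 in the median peak and 79.7 near Abcb11. It was 10 or more for 25 peaks (3.23%). Without those 25 the median width was 704.5 bp and 28.9% overlapped a non-coding gene or pseudogene.

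**Figure D4:**
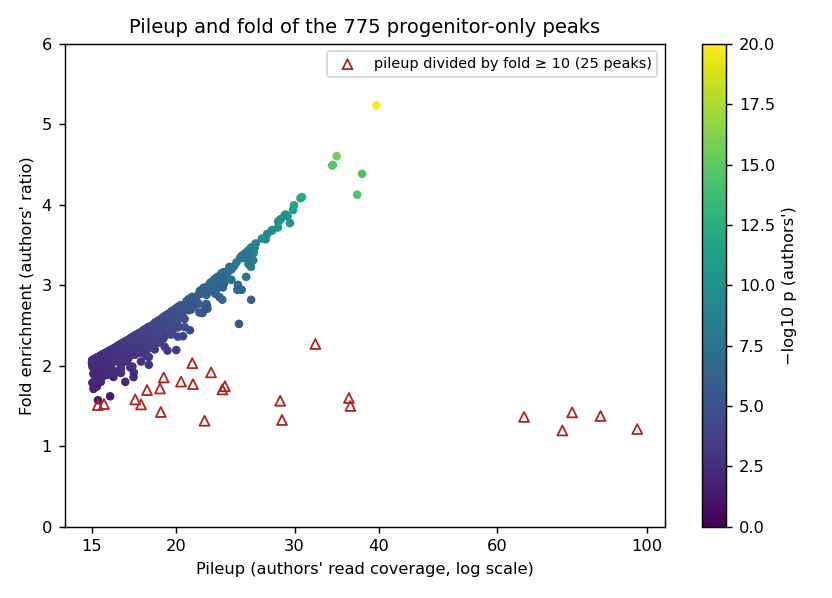
Each point is 1 of the 775 peaks by pileup (x, log scale) and fold enrichment (y), coloured by −log10 p, with open triangles for the 25 peaks whose pileup divided by fold was 10 or more. Most peaks follow 1 narrow curve up to a fold of 5.24, and the triangles reach a pileup of 96.81 at folds near 1.2.

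Early-B peaks were often close without touching. The median distance from the 775 peaks to the nearest Early-B peak was 11405 bp. An Early-B peak lay within 1 kb of 30 peaks (3.87%), within 5 kb of 217 (28.0%, exact binomial 95% interval 24.9 to 31.3%) and within 50 kb of 658 (84.9%). For Early-B-only peaks outside coding genes, a progenitor peak lay within 5 kb of 16.8%, with the longer Early-B list and the shorter progenitor list as the targets in each case. Other progenitor-only peaks had similar shares with an Early-B peak within 5 kb. These were 34.2% outside coding genes below the pileup threshold, and 30.4% inside coding genes and 25.3% at their ends above it. The nearest Early-B peak, at any distance, itself met no progenitor peak for 302 of the 775 (39.0%), beside 50.4% of all 48054 Early-B peaks and 68% of the 21079 outside coding genes. Where it lay within 5 kb, it met no progenitor peak for 86 of 217 (39.6%). The nearest Early-B peak had the higher −log10 p in 430 of 775 cases (55.5%).

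The closest approaches showed how finely peak edges set the classes. On chromosome 2, a 408-bp progenitor peak in the lncRNA Carlr (18799870 to 18800277, −log10 p 5.25) began 80 bp from the edge of a 1119-bp Early-B peak with a −log10 p of 10.3, which itself met no progenitor peak. The next lay 130 bp apart near Emb, which encodes a cell adhesion protein (3.79 against 2.16), 141 bp apart near Dync1li1 (2.77 against 5.04), 290 bp apart near Phlpp1 (3.07 against 6.04) and 392 bp apart near BC048507 (2.98 against 5.12). In 4 of these 5 the Early-B peak had the higher −log10 p within its own list, a value that does not measure change between lists.

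**Figure D5:**
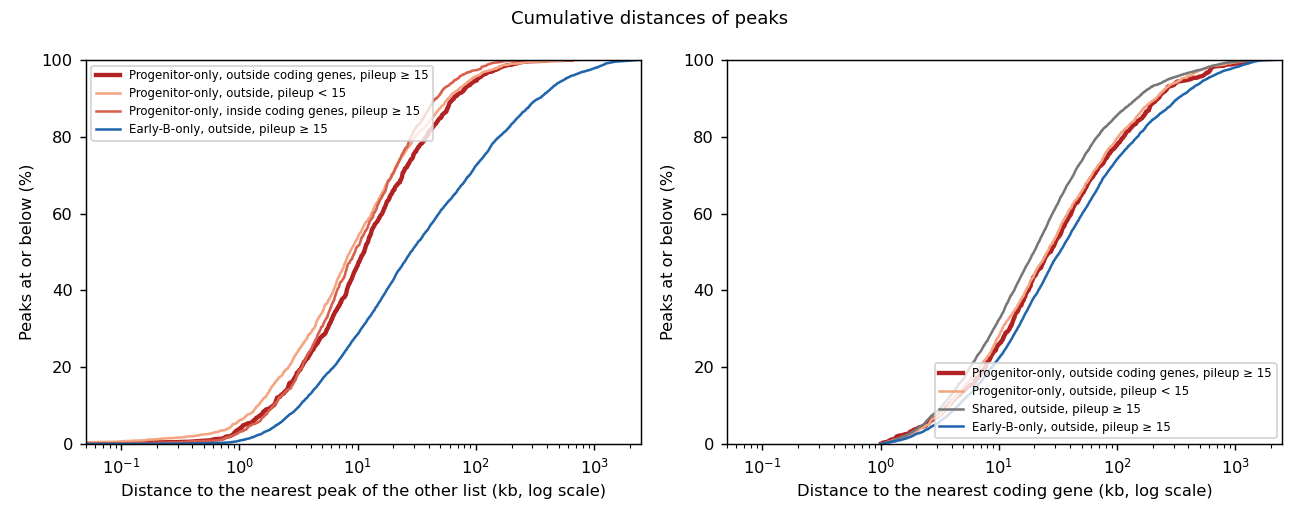
Cumulative share of peaks (%) by distance in kb, on a log x axis, to the nearest peak of the other list (left) and to the nearest coding gene (right). The 775 peaks reach their medians at 11405 bp and 27541 bp, and Early-B-only peaks outside coding genes at 28096.5 bp and 32890 bp. Progenitor-only peaks outside coding genes below the pileup threshold reach them at 8634 bp and 25609 bp.

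The nearest coding gene lay a median of 27541 bp away (exact 95% interval of the median 23055 to 31387 bp). It was within 10 kb for 201 peaks (25.9%) and beyond 100 kb for 172 (22.2%). Shared progenitor peaks outside coding genes lay a median of 19828 bp away and Early-B-only ones 32890 bp. The peaks nearest a coding gene were 1011 bp from Car15, 1043 bp from Ddah1 and 1045 bp from Prpsap2. The farthest lay 1411099 bp from Grik2, a glutamate receptor gene, followed by the peak in Igk and one in Igh, whose nearest coding genes were 1249046 and 1244253 bp away. The 775 peaks had 669 different nearest coding genes, and 586 of these had 1 peak each. The nearest gene carried an end peak in both lists for 497 peaks (64.1%), in neither for 211 (27.2%), in progenitors only for 34 (4.39%) and in Early-B only for 33 (4.26%). For the 5250 shared progenitor peaks outside coding genes these shares were 70.1% both, 21.9% neither, 2.93% progenitors only and 5.07% Early-B only. For the 1803 progenitor-only peaks below the pileup threshold they were 66.7%, 23.7%, 5.05% and 4.49% in the same order. Among all 21900 coding genes, counted once each, they were 53.5%, 38.4%, 2.34% and 5.75%.

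Genes of the T lineage and Notch signalling were the nearest coding gene of 8 peaks (7 of 27 genes), or 1.03% of the 775, against 0.476% of all 9664 progenitor peaks outside coding genes. Among them were the peak in Gm10355 near Cd2 (8.34) and peaks 87453 bp from Hes1, the Notch target (6.94), 21260 bp from the receptor gene Notch3 (6.91), and 215053 bp from Tox, a factor of T cell development (6.03). The other 4 lay 29162 bp from Thy1 (4.34), 16565 and 14066 bp from Cd7 (3.73 and 2.70) and 262485 bp from Gata3 (3.27). B-lineage genes were nearest for 1 peak (0.129%, against 0.300%), 12370 bp from Tcf3, the gene of the E proteins E12 and E47, with a −log10 p of 2.38. Early-B-only peaks outside coding genes had 0.235% near the T-lineage list and 0.528% near the B-lineage list. The 9664 peaks include the 775 and have no pileup threshold. Counts by gene list are small, and no interval or difference was computed for them. A nearest gene is a neighbour on the chromosome and no target was measured.

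Stem and multipotent progenitor genes were nearest for 5 peaks (0.645%, against 0.548% of all progenitor peaks outside coding genes). A 1044-bp peak on chromosome 11 (19026612 to 19027655, −log10 p 6.06) lay 6961 bp from Meis1, a homeodomain factor of stem cells, and 1469 bp from an Early-B peak of 16.2. A peak 3406 bp from Tal1, a master factor of blood formation, had 4.77, with an Early-B peak of 5.15 at 3667 bp. Peaks near Runx1 (120707 bp, 2.83), Mycn (114465 bp, 2.54) and Kit, the receptor of stem cell factor (73577 bp, 2.54), were weaker, and that near Runx1 lay 1971 bp from an Early-B peak of 10.3. All 5 of these genes carried end peaks in both lists.

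NK and innate lymphoid genes were nearest for 3 peaks (0.387%, against 0.476%), of which 2 lay 176421 and 171810 bp from Id2, an inhibitor of E proteins (5.44 and 2.94), and 1 lay 33631 bp from Ifng (3.03). Of the stromal and mesenchymal list, only Thy1, which is also in the T-lineage list, was nearest to a peak (4.34). Neither the myeloid nor the erythroid and megakaryocyte list had one. A count of 0 of 775 allows a share of up to about 0.387%, by an approximate limit that is lower than the exact interval would give. Over all progenitor peaks outside coding genes these lists had 0.435% and 0.0828%. With counts this small, a 0 is not read as a lack of such peaks. The defining genes of the labelled cells were checked at coding gene ends. Of 7 progenitor markers 5 had an end peak in both lists and 2, Gata2 and Lmo2, in progenitors only, and of 5 B-lineage markers 4 had one in Early-B only and none in progenitors only. Of 4 T-lineage markers 2 had one in both lists and 2 in neither, and of 4 myeloid markers 2, Mpo and Itgam, had one in progenitors only and 2, Csf1r and Elane, in neither. Of 3 erythroid markers Klf1 had one in both lists, Hbb-bs in progenitors only and Gata1 in neither. Of 5 stromal markers 2 had an end peak in both lists and 3 in Early-B only. The part of stromal cells in any difference was not tested.

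MicroRNA precursors lay within 10 kb of 11 peaks (1.42%). Outside coding genes the share was 1.83% for shared progenitor peaks and 0.601% for Early-B-only peaks at the same pileup threshold. It was 0.887% for progenitor-only peaks below that threshold, and 1.65% for progenitor-only peaks inside coding genes that reached it. Mature microRNAs of 3 of these loci are shown, the strongest peak's (Mir29a and Mir29b-1), the next by −log10 p (Mir135a-1) and the only one under a peak (Mir129-2 and Mir129b), with the seed, bases 2 to 8, in capitals, from RefSeq (GRCm38.p6).
miR-29a-3p: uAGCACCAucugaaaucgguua
miR-29b-3p: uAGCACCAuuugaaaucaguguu
miR-129-5p: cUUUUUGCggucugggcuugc
miR-129-2-3p: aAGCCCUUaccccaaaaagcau
miR-129b-5p: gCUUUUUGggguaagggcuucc
miR-129b-3p: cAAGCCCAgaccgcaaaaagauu
miR-135a-5p: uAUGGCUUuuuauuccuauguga
miR-29a-3p and miR-29b-3p share the seed AGCACCA, and the miR-129 and miR-135a arms each have their own. Mir29a and Mir29b-1, whose products target DNA methyltransferase and collagen transcripts, had a 2637-bp peak 8611 and 8265 bp away (chromosome 6, 31071358 to 31073994, −log10 p 5.72, fold 2.69), and the nearest Early-B peak to that peak was 11107 bp off. Mir129-2 and Mir129b, which lie on opposite strands of the same stretch within the lncRNA Mir670hg, were the only precursors under one of the 775 peaks (chromosome 2, 94241164 to 94241521, −log10 p 3.26). An Early-B peak of −log10 p 6.91 lay 4321 bp from that peak.

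The remaining microRNA neighbours had peaks weaker than that near Mir29a and Mir29b-1, and some of the precursors were already covered in Early-B. Mir135a-1 lay 4769 bp from the peak at the start of D030055H07Rik (4.86) and 5025 bp from the nearest Early-B peak. Mir124a-1 and Mir3078 lay 2592 and 3120 bp from a peak of 3.66 on chromosome 14, and the Early-B peak nearest to these precursors lay 35620 and 35090 bp from them. Mir692-1 lay 8582 bp from a peak of 3.53. Of the others, Mir7688 (4.20), Mir3069 (3.56), Mir6516 (3.54), Mir760 (3.51), Mir6367 (3.24) and Mir6538 (2.39), each precursor itself lay under an Early-B peak, so the progenitor-only peak beside it was not the only mark at the locus.

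By chromosome, the share of progenitor peaks with a pileup of at least 15 outside coding genes that met no Early-B peak ran from 7.02% on chromosome 19 (12 of 171, exact binomial 95% interval 3.68 to 11.9%) to 16.3% on chromosome 3 (51 of 312, 12.4 to 20.9%), beside 12.9% over all. Chromosome 1 had the most peaks, 59, and the X chromosome had 26 of 203 (12.8%). The peaks were scattered: joined across gaps of up to 50 kb they formed 701 groups, of which 635 were single peaks, 60 held 2 and 6 held 3 or more.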

How the data were processed

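H3K4me3 chromatin immunoprecipitation was analysed from 2 peak lists, 1 for the Ebf1-null progenitors and 1 for Early-B cells, each matched to its group through the sample titles. The aligner Bowtie (1.1.2) and the peak caller MACS (1.4.3) are listed per the submitters' processing notes, as are a mouse build, mm10, and a human one, GRCh38; which step used which is not said. The columns, with a pileup and no summit, resemble the broad peaks of a later MACS version, whose pileup, fold and p are averages over a region; which output they are is not stated, so a wide peak's values may be averages. Settings, use of the input and any pooling of replicates are not stated there. Pileup is deposited as a coverage signal, and the fold enrichment is the authors' ratio over a background. A further pair of deposited columns has damaged names and was read as −log10 p and, as a further score deposited by the authors, −log10 q, from their order and values (the second exceeded the first in 0 peaks). These values describe and rank peaks within a list.

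Coordinates are counted from 1. Genes came from RefSeq GRCm38.p6, with 21900 protein-coding genes. As a build check, among progenitor peaks reaching 50 in −log10 p, 83.9% lay within 1 kb of a coding gene end, against 17.6% after a shift of 100 kb. A distance is the difference between facing edges. Intervals for shares and medians are exact binomial at 95% and cover counting error over peaks only. The limit given for a count of 0 is not such an interval. It is 3 divided by the number of peaks or windows, which is lower than the exact interval would give. The distance and overlap code was tested on simulated intervals. Tables were handled in pandas 2.3.3 and numpy 2.4.6 under Python 3.11.15, intervals came from scipy 1.17.1, and plots from matplotlib 3.10.9.

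The peaks, gene lists and motifs were chosen with earlier results of these data known. Named were the 10 peaks with the highest −log10 p, the 5 highest by pileup, the 5 widest, 3 on either side of the pileup threshold, the 3 nearest to and 3 farthest from a coding gene, the 5 nearest to an Early-B peak, the leading 10 at non-coding genes, all near a microRNA, and the 4 with the highest −log10 p per gene list; the rest of each list were added beyond this rule. Other examples were chosen after their values were seen, among them the peaks at lncRNA start windows, snRNA genes and receptor loci. Samples of other assays and of Early-T cells were not used here.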

Additional observations from a re-analysis of the deposited data

How the results depend on the processing

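The 775 peaks depend on both thresholds. A pileup of at least 10 gave 2578 peaks and at least 20 gave 176, a progenitor −log10 p of at least 5 gave 170, counting as shared only overlap with Early-B peaks of −log10 p at least 5 gave 2182, and asking that Early-B peaks cover at least 50% gave 1232. The share over a non-coding gene or pseudogene was 32.4% at a pileup of 20, 35.9% at a −log10 p of 5 and 34.0% with the stronger Early-B peaks. The share with an Early-B peak within 5 kb was 32.3% at a pileup of 10, 74.4% with the stronger Early-B peaks, 54.7% with the 50% rule and 24.3% when more than 5 kb from a coding gene end, where the median gene distance was 36011 bp. The stricter rules for sharing admit peaks that touch an Early-B peak, which sets these higher shares. Median width was 523.5 bp at a pileup of 10, 778.5 at 20, 802 at a −log10 p of 5, 821 with the stronger Early-B peaks and 881.5 with the 50% rule. Asking for more than 5 kb from a coding gene end drops the peaks nearest to genes, which sets the higher median gene distance. The cause of the other shifts was not tested. The other 32 of 50 values stayed within 1.5 times the count or within the interval of the share or median, among them all 5 without the 25 peaks of high background, an alternative chosen after seeing the data. Of the 22 peaks at lncRNA start windows 4 remained at a pileup of 20 and 4 at a −log10 p of 5. No paired analysis was possible because each group has 1 list, and no replicate could be left out.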

Other observations

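The beginning of chromosome 14 held 6 of these progenitor-only peaks below 10 Mb, spaced along a stretch of related predicted genes. They lay beside Gm10413 (3412838 to 3413691, −log10 p 5.15), Gm3012 (4.03), Gm3050 (8.31), Gm3159 (11.9), Gm10410 (2.73) and Gm3727 (4.20). Those beside Gm10413, Gm3012 and Gm3727 overlapped the transcribed pseudogenes Gm10409, Gm3020 and Gm3715, in that order. The peak beside Gm3159 is the one at the transcript Gm3164 named above. Each of the 6 stood between 8670 and 11223 bp from its nearest coding gene, and between 69213 and 207869 bp from the nearest Early-B peak. Their widths ran from 811 to 1253 bp, and pileup divided by fold from 7.26 to 7.49, near the median of 7.45. The progenitor list held 57 peaks in this stretch and the Early-B list 55. Near-identical gene copies can share reads, so the copy that a peak belongs to is uncertain. This stretch was chosen after its values were seen.

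No other peak of either list lay within 50 kb of 61 of the 775 peaks (7.87%). The strongest was the 209-bp peak in Gm42056 on chromosome 8, whose nearest other progenitor peak was 228611 bp away. Others lay 259698 bp from Cd180, a receptor of B cells and macrophages (−log10 p 8.67), 83069 bp from Hgf, the hepatocyte growth factor gene (5.20), and 170887 bp from Angpt1, a ligand of the TIE2 receptor (5.24). The coding genes nearest to 4 or more peaks were these: Zfp386 to 5, the closest at 81687 bp, BC107364 to 4 (10820 bp), Kcna4 to 4 (614734 bp) and Pik3r1, a subunit of PI3 kinase, to 4 (197317 bp). All 5 with Zfp386 as the nearest gene are peaks in Igh already counted above, at up to 1242757 bp from Zfp386. The 4 with Kcna4 as the nearest gene lay within 22823 bp on chromosome 2 (107941538 to 107964360), with −log10 p values from 2.55 to 8.18, and the Early-B list held 1 peak inside that span.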
